A study of Mus musculus with 11 samples.

Results

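Transplanted microglia were compared with resident microglia of the mouse brain over every expressed gene. The comparison takes 8 of the 11 libraries of the series, 4 of transplanted and 4 of resident cells, as their titles give the groups; the other 3 libraries are of cultured cells and did not enter the fit. Microglia are the macrophages of the brain parenchyma. They settle there before birth, renew themselves locally, survey the tissue with motile processes and clear debris through their lysosomes. Their survival depends on signalling through the receptor Csf1r, so an inhibitor of that receptor empties the brain of microglia, and the empty niche can then be filled by cells introduced from outside. Macrophages that arrive in such a niche are known to take on much of the microglial programme while keeping some expression of their own.

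Both groups carry the Cx3cr1-GFP genotype on the labels, a green fluorescent reporter at the locus of the fractalkine receptor that microglia and other macrophages of the brain express, and both were sorted by fluorescence (FACS). The transplanted cells had spent 3 months in the host brain. The protocol gives PLX3397, a Csf1r inhibitor, at 600 mg/kg in chow over 3 depletion cycles before transplantation. It is attached to every library, so whether the mice that gave resident cells had been treated cannot be read from the labels. The labels used here also leave out the age and sex of the mice, the source of the transplanted cells, the sort gate and whether a library is 1 mouse or a pool. If libraries of a group do not come from separate mice, the p-values rest on a spread that may be technical. Exposure to the inhibitor, the transplantation itself and the age of the cells cannot be told apart in this design.

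The 8 libraries held 18692721 to 19965631 expected read counts and 14204 to 14598 detected genes each, so depth was even between groups. Levels are given as CPM (counts scaled to a common library size) after scaling by the TMM method; where a gene has a count of 0, its level may be as high as 3 counts (0.151 to 0.162 CPM), a limit for counting error alone. Of 25 genes of the microglial homeostatic list, all tested, 1 was higher and 5 lower (median log2 fold change -0.21, 5 positive), with 8 lower without resident library 1 and 12 without transplanted library 2. Over all genes tested, 7.17% were called higher and 5.86% lower, with a median log2 fold change of 0.02. Together the 25 genes of the list summed to 107272 to 116593 CPM in resident and 88927 to 112575 CPM in transplanted libraries. Tmem119 was at 6761 ± 369 CPM in resident and 6403 ± 949 CPM in transplanted cells (± SD, n = 4 in each group), and Csf1r and Cx3cr1 likewise did not pass the test (adjusted p = 0.299 and 0.468 in the order named). Sall1, whose product maintains the microglial state, was 1.32-fold lower in transplanted cells, a call that was lost without resident library 1 or 3 or transplanted library 1.

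Markers of other cells of the brain and blood were described by list, with their levels summed in each library. Their calls are to be read beside the same shares over all genes tested. Neuron markers had 0 of 4 tested members called and summed to 9.04 to 11.8 CPM in resident and 8.68 to 10.6 CPM in transplanted libraries, and astrocyte markers 0 of 7, at 237 to 300.2 and 162 to 305 CPM. Slc1a3 made up most of the astrocyte sum, with means of 267 CPM in resident and 215 CPM in transplanted cells. The next highest astrocyte marker, Clu, was at 3.12 and 2.75 CPM. Of 4 oligodendrocyte markers tested 1 was lower, Cnp, an enzyme of myelin (110.5 ± 4.56 against 90.3 ± 10.5 CPM), a call lost without any 1 library other than transplanted 2. No marker of mural cells and fibroblasts or of red cells passed the filter on low counts, and these lists summed to at most 1.52 and 4.39 CPM in any library. Csf3r, a cytokine receptor, was the 1 neutrophil marker tested and was higher (878 ± 49.4 against 1176 ± 104 CPM), while S100a8 was under 0.1 CPM in both group means. Cd4 was the 1 T and NK cell marker tested and was lower (1.28 ± 0.465 against 0.128 ± 0.157 CPM), while Cd3e was at or near 0. Cspg4 was the 1 marker of oligodendrocyte precursors tested and was higher, at 0.181 ± 0.101 in resident and 3.03 ± 1.71 CPM in transplanted cells (16.3-fold; log2 fold change 4.02 ± 0.55, adjusted p = 0.000984). The other markers of that list, Pdgfra, Olig1, Olig2 and Sox10, were under 0.3 CPM in both group means. The part of these cells in any result was not tested.

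Some libraries stood apart from the rest of their group. Resident library 1 had 1793 CPM of Fos and 2395 CPM of Egr1, immediate early genes that rise within minutes of cell stimulation, against at most 7.48 and 19.5 CPM in the other resident libraries. The genes of the immediate early list summed to 1196 to 17666 CPM over the resident libraries and 1396 to 1767 CPM over the transplanted ones. Resident library 4 had 0.151 CPM of the Y-linked gene Ddx3y, where the other resident libraries had 112 to 119.9 CPM and the transplanted libraries 35 to 130.3 CPM. Among the latter, libraries 1 and 2 were the low ones, at 50.1 and 35 CPM. Counts of calls are also given with both resident libraries left out.

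Of 11929 genes tested with edgeR's quasi-likelihood test, 855 were higher in transplanted cells (7.17% of those tested) and 699 were lower (5.86%), together 13%. The threshold for a call was 0.05 after Benjamini-Hochberg adjustment across the whole table. Most differences were small: 85.3% of genes tested had a log2 fold change within 0.5 of 0, and the median over all of them was 0.02. At least 2-fold differences were called at 288 higher and 303 lower genes. The 4 and 4 libraries did not overlap at 2359 genes (19.8%), among them 795 of the higher and 683 of the lower calls. The numbers called fell to 324 higher and 340 lower genes with resident libraries 1 and 4 both left out, and the higher count fell to 519 without resident library 2 and 511 without resident library 3.

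**Figure D1:**
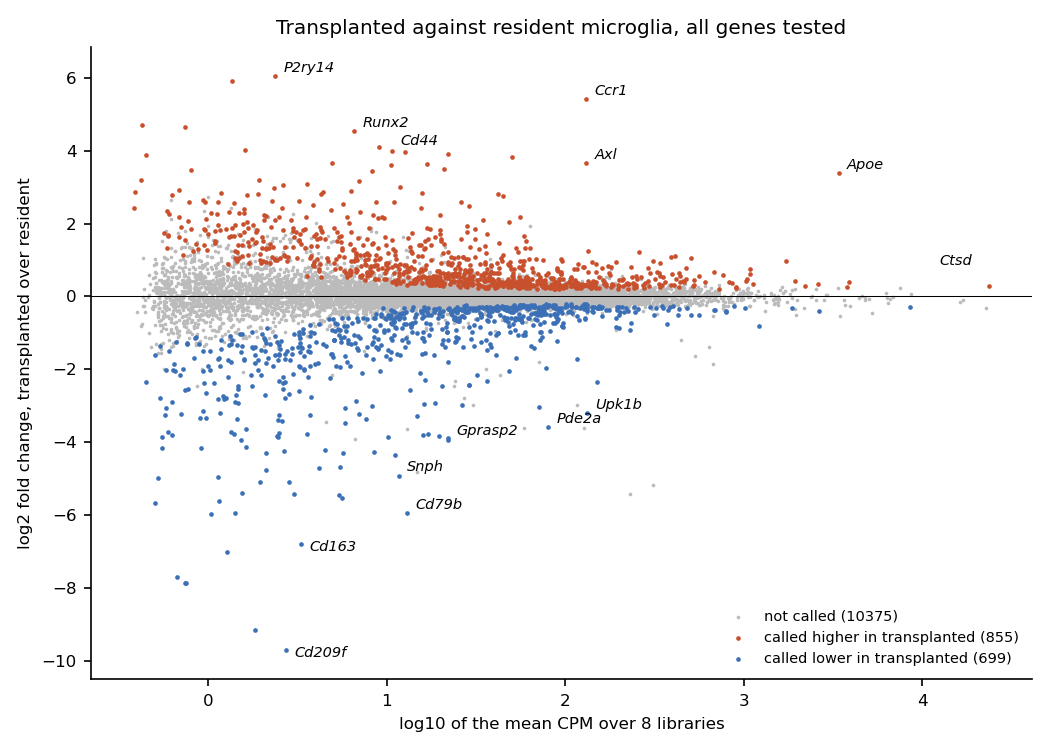
Each point is 1 of the 11929 genes tested; the x axis is the log10 of its mean CPM over the 8 libraries and the y axis its log2 fold change, transplanted over resident. Called genes are coloured (855 higher, 699 lower) and reach log2 fold changes of 6.06 for P2ry14 and 5.42 for Ccr1, while most abundant genes lie near 0.

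The genes with the largest rise among those reaching 5 CPM included receptors and surface proteins of macrophages. Ccr1, a chemokine receptor that directs leukocyte migration (Entrez 12768, chr9:123962126-123968692), stood at 5.35, 7.79, 5.52 and 5.35 CPM in resident libraries 1 to 4 and 287, 105, 328 and 306 CPM in transplanted libraries 1 to 4. Every transplanted library was above every resident one, and transplanted library 2 was the lowest of the 4. The difference was 42.7-fold (log2 fold change 5.42 ± 0.36, adjusted p = 1.17e-05). Cd44, the adhesion receptor for hyaluronan (Entrez 12505, chr2:102811141-102901669), stood at 1.26, 1.08, 1.26 and 1.41 CPM in resident libraries 1 to 4 and 21, 16, 19.8 and 23.4 CPM in transplanted libraries 1 to 4, a narrow range in both groups (15.9-fold; log2 fold change 3.99 ± 0.16, adjusted p = 3.73e-07). Axl, a receptor tyrosine kinase for the engulfment of dying cells (Entrez 26362, chr7:25756500-25788924), stood at 12.8, 22.1, 14.4 and 27.2 CPM in resident libraries 1 to 4 and 270.0, 183, 171 and 349 CPM in transplanted libraries 1 to 4 (12.7-fold; log2 fold change 3.67 ± 0.30, adjusted p = 3.67e-05). Its lowest transplanted library was 3 and its highest 4, and none came near the resident range.

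Further receptors and ligands rose with them. Tnfsf8, the ligand of the receptor CD30 (Entrez 21949, chr4:63831202-63861508), stood at 2.52, 2.12, 2.79 and 3.69 CPM in resident libraries 1 to 4 and 37.4, 43.2, 42.8 and 42.9 CPM in transplanted libraries 1 to 4, and was 14.9-fold higher (log2 fold change 3.90 ± 0.15, adjusted p = 3.31e-07). Hcar2, the receptor for niacin and the ketone body beta-hydroxybutyrate, stood at 5.55, 7.74, 7.68 and 5.5 CPM in resident libraries 1 to 4 and 48.1, 59, 148 and 123 CPM in transplanted libraries 1 to 4 (14.3-fold; log2 fold change 3.84 ± 0.37, adjusted p = 0.000109). The transplanted libraries fell into a lower pair (1 and 2) and a higher pair (3 and 4) for this gene. Itgal, the alpha chain of the leukocyte integrin LFA-1, was 12.7-fold higher, at 0.719 ± 0.266 CPM in resident and 9.19 ± 5.26 CPM in transplanted cells. Cd244a, a receptor of the SLAM family, and Sh2d1b1, an adaptor protein that binds SLAM family receptors, were 12.4-fold and 12.2-fold higher. Cd244a reached 79.6 CPM in transplanted library 3 and 10.3 to 22.8 CPM in the other 3, and its call was lost with resident libraries 1 and 4 both left out.

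The largest rises also took in transcriptional regulators and enzymes. Runx2, the runt-domain transcription factor best known from bone formation (Entrez 12393, chr17:44495987-44814797), stood at 0.555, 0.671, 0.263 and 0.656 CPM in resident libraries 1 to 4 and 17.2, 13, 11.1 and 9.22 CPM in transplanted libraries 1 to 4. Resident libraries thus held under 1 CPM each, and the lowest transplanted library was 4 (23.2-fold; log2 fold change 4.54 ± 0.29, adjusted p = 8.69e-06). Trps1, a GATA-type zinc finger repressor, was 11.2-fold higher (3.44 ± 0.806 against 38.6 ± 8.27 CPM; log2 fold change 3.49 ± 0.20, adjusted p = 5.02e-06). Xdh, the enzyme that makes uric acid, stood at 0.303, 1.19, 1.32 and 1.16 CPM in resident libraries 1 to 4 and 8.39, 7.45, 31.5 and 21.1 CPM in transplanted libraries 1 to 4 (17.2-fold; log2 fold change 4.10 ± 0.55, adjusted p = 0.000903). B3gnt8, a glycosyltransferase that extends N-glycans, stood at 1.21, 1.29, 2.05 and 1.57 CPM in resident libraries 1 to 4 and 26.8, 26, 15 and 27.5 CPM in transplanted libraries 1 to 4 (15.6-fold; log2 fold change 3.96 ± 0.24, adjusted p = 7.21e-06). Transplanted library 3 was the lowest for B3gnt8, and still above every resident library.

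**Figure D2:**
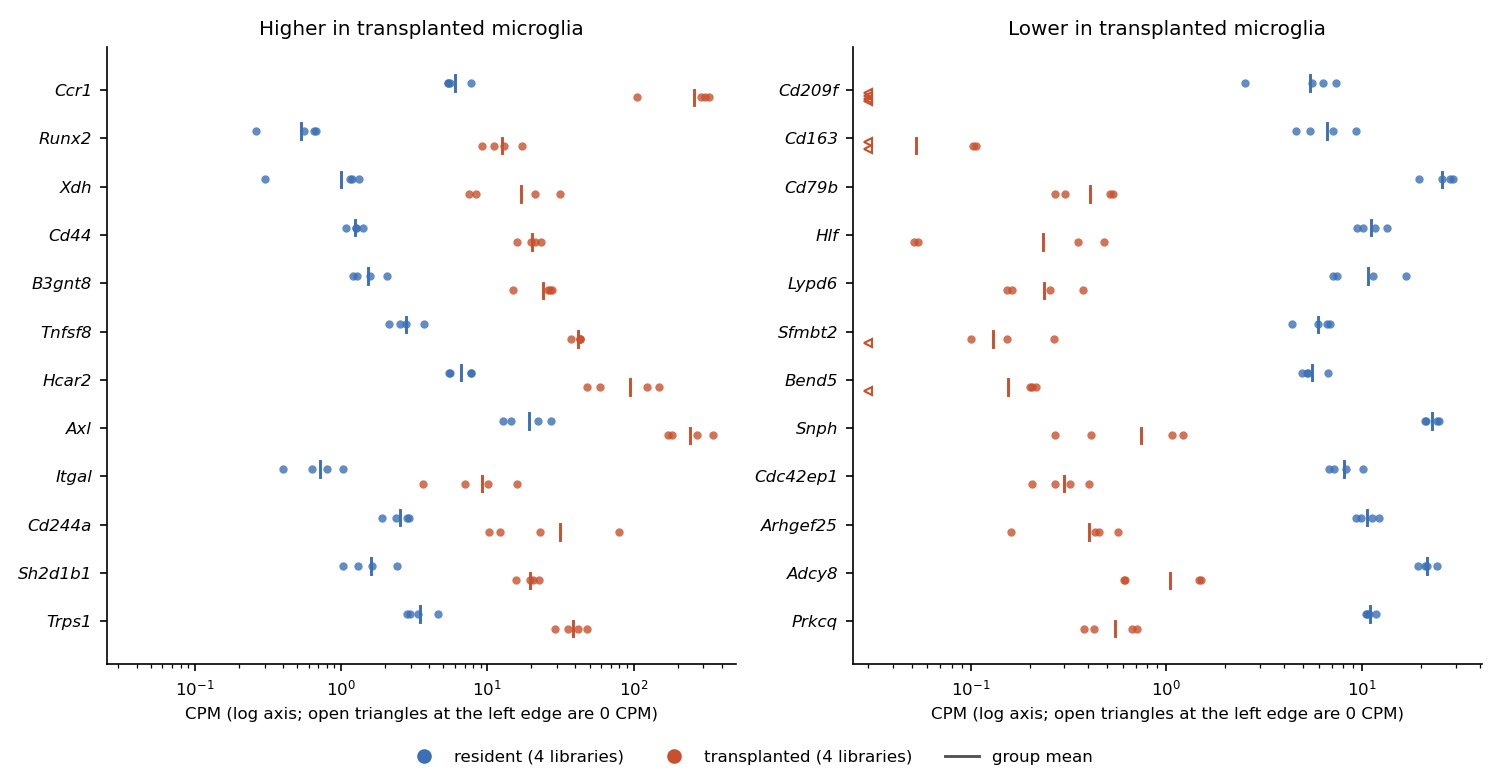
CPM in each library (log x axis) for the 12 called genes per direction with the largest fold change among those with a mean of at least 5 CPM in the higher group and no overlap; points are libraries, bars are group means and open triangles are libraries at 0 CPM. No gene shown has a transplanted library within the range of the resident ones.

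By absolute amount, Apoe rose most. This gene for the lipid-carrying apolipoprotein E stood at 461, 848, 467 and 611 CPM in resident libraries 1 to 4 and 7664, 1948, 6080.4 and 9185 CPM in transplanted libraries 1 to 4, so transplanted library 2 lay well below the other 3 (10.4-fold; log2 fold change 3.38 ± 0.42, adjusted p = 0.000536). Other abundant genes moved much less. Ctsd, the lysosomal protease cathepsin D, was 1.22-fold higher at 21347 ± 809 against 26081 ± 1769.6 CPM. Olfml3, a secreted protein typical of microglia, was 1.32-fold higher, Ly6e, an interferon-inducible surface protein, 1.33-fold, and H2-D1, an MHC class I heavy chain, 1.67-fold. The transferrin gene Trf (1.26-fold) and the tetraspanin gene Cd81 (1.21-fold) completed the abundant higher genes with a symbol. Entrez108169013, a gene known in the table used by its Entrez identifier alone, was also among them, at 1158 ± 399 against 2284 ± 628 CPM, and its libraries overlapped between groups. Calls of small size were less firm: Ctsd was no longer called without resident library 1, 3 or 4, Trf without resident library 1 or 2, and Cd81 without any 1 of 7 libraries (each of the resident ones and transplanted 1 to 3) or with RLE scaling. Olfml3 lost its call with resident libraries 1 and 4 both left out. Plin3, a coat protein of lipid droplets, and Htra3, a secreted serine protease, were 3.63-fold and 3.14-fold higher with little spread. Plin3 stood at 15.5, 11.9, 13.3 and 13.4 CPM in resident libraries 1 to 4 and 52.6, 52.2, 44.4 and 47.7 CPM in transplanted libraries 1 to 4.

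Genes of the opposite kind, lower in transplanted cells, included markers of macrophages at the borders of the brain and signalling proteins. Cd209f, a lectin of such border macrophages, had 426 counts over the resident libraries (6.31, 7.38, 2.52 and 5.55 CPM in libraries 1 to 4) and 0 counts in every transplanted library. It was at least 139-fold lower, taking 3 counts over the transplanted group as the floor. Cd163, a scavenger receptor for haemoglobin, stood at 5.4, 9.34, 4.58 and 7.07 CPM in resident libraries 1 to 4 and 0, 0.107, 0.103 and 0 CPM in transplanted libraries 1 to 4 (112-fold lower; log2 fold change -6.81 ± 0.51, adjusted p = 2.33e-05). Cd79b, a signalling chain of the B cell receptor (Entrez 15985, chr11:106311341-106314562), stood at 19.6, 28.2, 25.6 and 29 CPM in resident libraries 1 to 4 and 0.303, 0.536, 0.515 and 0.27 CPM in transplanted libraries 1 to 4 (62.1-fold lower; log2 fold change -5.96 ± 0.22, adjusted p = 3.31e-07). Its partner chain gene Cd79a was under 0.5 CPM in both groups, as was the B cell marker Ms4a1.

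Several of the steepest falls were in genes of intracellular signalling. Adcy8, a calcium-stimulated adenylyl cyclase (Entrez 11514, chr15:64699035-64922296), stood at 19.2, 24, 21 and 21.4 CPM in resident libraries 1 to 4 and 0.606, 1.5, 0.618 and 1.46 CPM in transplanted libraries 1 to 4 (20.5-fold lower; log2 fold change -4.36 ± 0.25, adjusted p = 5.37e-06). Prkcq, the protein kinase C theta gene (Entrez 18761, chr2:11171905-11301226), stood at 10.6, 10.5, 10.8 and 11.7 CPM in resident libraries 1 to 4 and 0.707, 0.429, 0.669 and 0.378 CPM in transplanted libraries 1 to 4. Each resident library was above 10 CPM and each transplanted one below 1 CPM (19.7-fold lower; log2 fold change -4.30 ± 0.20, adjusted p = 1.41e-06). Pde2a, a phosphodiesterase that breaks down cyclic AMP and is stimulated by cyclic GMP, stood at 149, 156, 147 and 142 CPM in resident libraries 1 to 4 and 6.21, 18.7, 14.8 and 9.28 CPM in transplanted libraries 1 to 4 (12.2-fold lower; log2 fold change -3.60 ± 0.27, adjusted p = 2.24e-05). Arhgef25 and Tiam1, guanine nucleotide exchange factors, were 25.9-fold and 11.1-fold lower, and Cdc42ep1, an effector of the GTPase Cdc42, was 26.4-fold lower. Rxfp1, the receptor for the hormone relaxin, was 27.1-fold lower, at 4.07 ± 0.547 against 0.144 ± 0.0247 CPM.

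Other genes also had large falls. Snph, which anchors mitochondria in axons, stood at 24, 20.9, 24.8 and 21.1 CPM in resident libraries 1 to 4 and 1.21, 1.07, 0.412 and 0.27 CPM in transplanted libraries 1 to 4 (30.3-fold lower; log2 fold change -4.92 ± 0.30, adjusted p = 7.41e-06). Hlf, a PAR-domain transcription factor with a daily rhythm in many tissues, stood at 11.6, 10.1, 9.42 and 13.4 CPM in resident libraries 1 to 4 and 0.354, 0.482, 0.0515 and 0.0539 CPM in transplanted libraries 1 to 4 (46.1-fold lower; log2 fold change -5.53 ± 0.40, adjusted p = 1.89e-05). Lypd6, a modulator of Wnt and nicotinic receptor signalling, Sfmbt2, a Polycomb group protein, and Bend5, a BEN-domain protein, were 44-fold, 43.3-fold and 33.9-fold lower. Upk1b, a uroplakin of the bladder lining that is also on the list of microglial genes (Entrez 22268, chr16:38773182-38800203), fell from 238 ± 19.2 to 26 ± 11.9 CPM (9.18-fold; log2 fold change -3.20 ± 0.30, adjusted p = 9.50e-05). Among abundant genes the falls were smaller: Slc2a5, the fructose transporter of microglia, was 1.76-fold lower, Siglech, a sialic acid-binding receptor, 1.32-fold (not called with resident libraries 1 and 4 both left out) and Ckb, the brain-type creatine kinase, 1.35-fold. Actb, Cmtm6 and Cd164 were 1.23-fold, 1.24-fold and 1.25-fold lower. Each of these last 3 lost its call without some single libraries: Actb without any 1 of 6 (resident 1, 3 or 4, transplanted 1, 3 or 4), Cmtm6 without resident 2, 3 or 4 or transplanted 4, and Cd164 without resident 2 or 4 or transplanted 4.

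Gene functions were then described through lists drawn from general knowledge, giving for each the members called and the median log2 fold change, to be read beside 7.17% called higher, 5.86% called lower and a median of 0.02 over all genes tested. The type I interferon response list holds genes that interferon alpha and beta switch on through the factor ISGF3, of which Stat2 is a subunit. Of its 34 tested members 14 were higher and 0 lower, with a median of 0.66, and all 34 had a positive log2 fold change. Ifi204, which encodes a DNA-binding protein of a family with near-identical copies, so that its reads may be shared, stood at 6.26, 6.71, 6.47 and 15.7 CPM in resident libraries 1 to 4 and 36.6, 39.2, 68.2 and 52.2 CPM in transplanted libraries 1 to 4 (5.57-fold higher). Stat2 was 1.46-fold and the nuclear body gene Sp100 2.12-fold higher. Resident library 4 was the highest resident library for Ifi204, Oas1a and Rsad2, and the number called moved with the libraries: 5 to 23 over the fits that left out 1 library. It was 6 without resident 1 or 2, 5 without resident 3, 8 without transplanted 3 or 4 and 23 without resident 4. The interferon gamma list had 5 of 21 members higher and 0 lower (median 0.42), and 2 or 3 higher without resident library 1, 2 or 3 or transplanted library 2.

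The letters of the interferon-stimulated response element, to which ISGF3 is known to bind, were searched as GAAA, any 2 bases and GAAA on either strand. They were looked for between 250 bases before and 50 bases after each gene start (RefSeq, GRCm38.p6). They were present for 7 of 12 called members of both interferon lists with a promoter in the table (58.3%), for 17 of 27 members not called (63%) and for 380 of 9644 genes tested (3.94%). Called and uncalled members thus carried the letters at similar shares. Windows of 60 bases around the match are shown for 4 called members, on the strand of the gene, with the match in capitals (a capital run starting with TTTC is the match on the opposite strand). They lie at chr8:71537568-71537627 on the minus strand for Bst2, a membrane tether of budding viruses, chr3:142620579-142620638 on the plus strand for Gbp2, a GTPase of host defence, chr19:34583348-34583407 on the plus strand for Ifit3, an RNA-sensing effector, and chr10:128270251-128270310 on the plus strand for Stat2.
Bst2: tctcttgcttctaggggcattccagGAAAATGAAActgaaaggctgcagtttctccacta
Gbp2: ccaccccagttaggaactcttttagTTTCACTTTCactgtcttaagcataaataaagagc
Ifit3: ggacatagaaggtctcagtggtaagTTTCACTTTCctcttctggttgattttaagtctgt
Stat2: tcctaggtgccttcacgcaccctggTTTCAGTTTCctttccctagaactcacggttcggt
Beside these sequences stand changes of 1.31-fold for Bst2, 1.4-fold for Gbp2, 2.1-fold for Ifit3 and 1.46-fold for Stat2, all higher in transplanted cells. Only Stat2 of these 4 kept its call whichever single library was left out: Ifit3 lost its call without resident library 1, 2 or 3 or transplanted library 3 or 4, Bst2 without resident 1 or 3 or transplanted 3, and Gbp2 without resident 1 or 2 or transplanted 3. Bst2 and Ifit3, like Oas1a and Rsad2 above, were chosen after their values had been seen. A match is a description of the letters and not a measured binding site.

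Antigen presentation split by class. MHC class I molecules show peptides from inside the cell, and 6 of the 19 tested genes of class I and its peptide loading were higher and 0 lower (median 0.14). Nlrc5, the transactivator of class I genes, stood at 8.88, 11.3, 8.15 and 12 CPM in resident libraries 1 to 4 and 20.5, 24.4, 40.8 and 34.7 CPM in transplanted libraries 1 to 4 (2.99-fold; log2 fold change 1.58 ± 0.22, adjusted p = 0.00106). H2-K1 and H2-Q6 were 1.61-fold and 3.02-fold higher, with the limit that reads of H2 heavy chains can be shared between near-identical copies. MHC class II molecules show peptides taken up from outside, and of the 12 tested genes of that list 3 were higher and 5 lower (median -0.25). The chains that form the class II molecule fell: H2-Aa stood at 15.3, 44.8, 29.5 and 29.3 CPM in resident libraries 1 to 4 and 1.72, 2.89, 0.978 and 2.91 CPM in transplanted libraries 1 to 4 (14-fold lower; log2 fold change -3.81 ± 0.38, adjusted p = 0.000133). H2-Eb1 was 13.8-fold, H2-Ab1 4.98-fold and the invariant chain gene Cd74 3.93-fold lower, and H2-Ob, a subunit of a regulator of peptide exchange, 1.31-fold lower, a call lost without resident library 1, 3 or 4. The higher members act in the compartment that loads the peptide: H2-DMa and H2-DMb2, subunits of the peptide exchange factor, were 1.55-fold and 1.56-fold higher, and Ifi30, a thiol reductase of endosomes, 1.74-fold. H2-DMb2 and Ifi30 were not called with resident libraries 1 and 4 both left out.

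Markers of border-associated macrophages moved with the class II chains. These cells live in the meninges and around vessels, express Cx3cr1 and carry class II molecules. Of the 13 markers tested 8 were lower and 1 higher (median -1.91), and the groups did not overlap at 9 of them, against 19.8% of all genes tested. F13a1, a coagulation factor subunit, stood at 12.5, 27.5, 11.7 and 13.2 CPM in resident libraries 1 to 4 and 0.202, 1.98, 0.618 and 0.539 CPM in transplanted libraries 1 to 4 (19.4-fold lower), Lyve1, a hyaluronan receptor, was 19.9-fold and Clec10a, a galactose-binding lectin, 13.9-fold lower. The mannose receptor gene Mrc1 was 2.27-fold lower and kept 18.2 ± 4.97 CPM in transplanted cells. Siglec1, a sialic acid receptor of macrophages, went the other way, at 4.9, 9.08, 4.16 and 6.71 CPM in resident libraries 1 to 4 and 8.39, 12.7, 18.3 and 17.2 CPM in transplanted libraries 1 to 4, and its call was lost without resident 1, 3 or 4 or transplanted 3 or 4. The 13 markers together summed to 650.4 to 759 CPM in resident and 428 to 708 CPM in transplanted libraries, a sum of which Stab1, a scavenger receptor, makes up most (609.6 ± 44.8 against 518 ± 124 CPM, adjusted p = 0.336). Cd209f was the marker at 0 in every transplanted library. Resident library 2 was the highest resident library for H2-Aa, H2-Eb1, Cd74, Mrc1 and F13a1. Resident library 1 was the lowest for the 3 class II genes. For Mrc1 and F13a1 the lowest was resident library 3 (30.7 and 11.7 CPM), with resident library 1 next (31.8 and 12.5 CPM). In bulk RNA, fewer cells of a type and less RNA per cell cannot be told apart. The part of border macrophages in the class II result was not tested. F13a1, Siglec1, H2-Ob, H2-DMb2, Ifi30 and, below, Itga4 were chosen after their values had been seen.

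**Figure D3:**
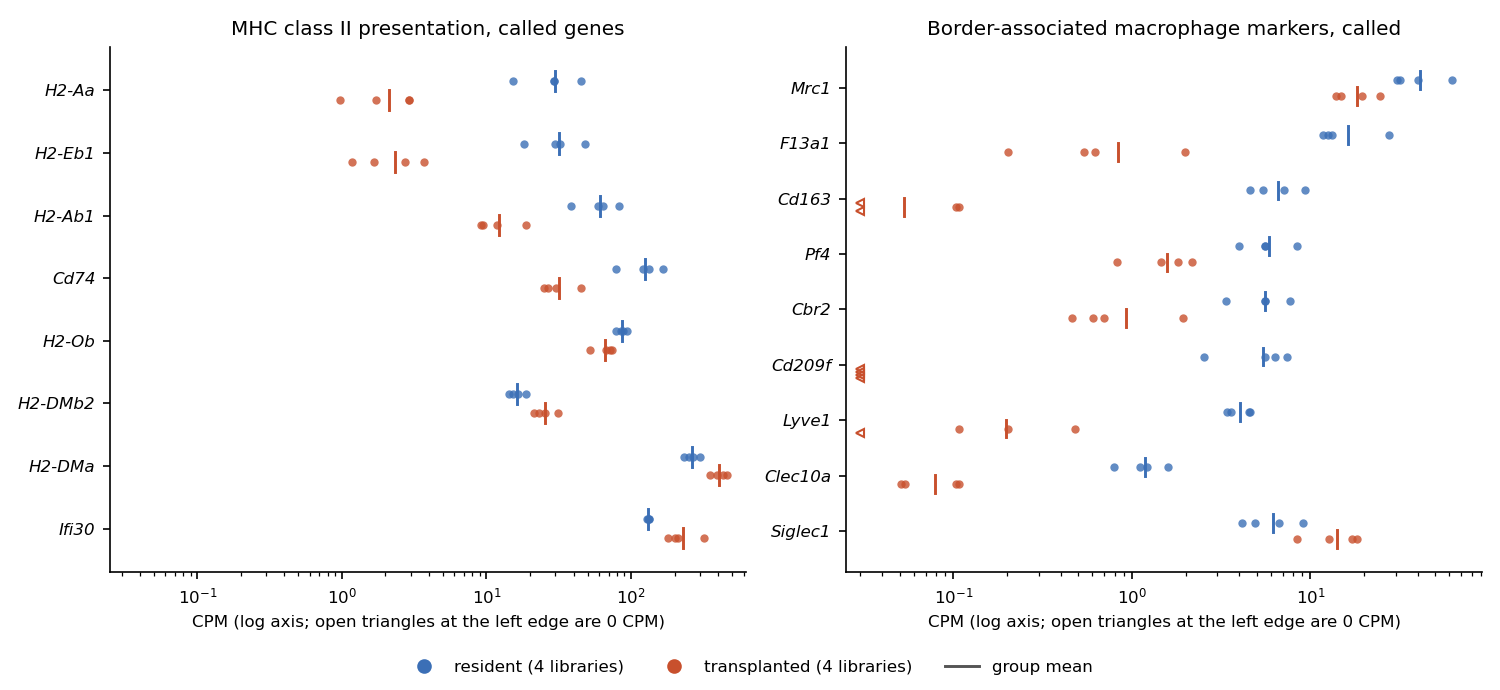
CPM in each library (log x axis) for the called genes of MHC class II presentation (left) and the called border-associated macrophage markers (right); points are libraries, bars are group means and open triangles are 0 CPM. The class II chains and 8 border markers lie lower in transplanted libraries, while H2-DMa, H2-DMb2, Ifi30 and Siglec1 lie higher.

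Of 12 tested markers of macrophages that enter the brain from blood 6 were higher and 1, H2-Eb1, was lower (median 1.20, 11 positive), the higher ones including Ccr1, Axl, Apoe, the lysozyme gene Lyz2 (2.07-fold) and the integrin gene Itga4 (2.66-fold). Of those not called, Ms4a7 and Clec12a had transplanted library 2 below every resident library (1.77 and 0.268 CPM) and the other transplanted libraries above. Tmem176b, Pla2g7 and Mpeg1 were not called either. Axl and Apoe are also on the list of disease-associated microglia, where 12 of 24 tested were higher and 1 lower (median 0.31). In that list 7 were higher without resident library 1 or 3. Of 8 tested monocyte markers 4 were higher and 1 lower (median 0.85), with 2 higher without resident library 3 or transplanted library 2, 3 or 4. Only 2 of these markers had at least 5 CPM in 4 libraries, 1 higher and 1 lower (median -0.60). Anxa2, an annexin of the cell membrane, was 5.73-fold and the lysozyme gene Lyz1 2.09-fold higher. Lyz1 and Lyz2 are close copies whose reads may be shared. Ccr2, the chemokine receptor that brings monocytes out of the bone marrow, was 4.68-fold lower (7.96 ± 1.83 against 1.7 ± 0.531 CPM), and the monocyte markers Ly6c2, Plac8 and Chil3 were under 1 CPM in both groups.

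Receptors that sense metabolites, acid and nucleotides were among the genes called. Of 26 chemoattractant and orphan receptors tested 8 were higher and 2 lower (median 0.01, and -0.02 with the trend over transcript length removed). Gpr65, a sensor of extracellular acid, stood at 6.81, 7.07, 7.42 and 8.48 CPM in resident libraries 1 to 4 and 42.8, 30.4, 58.5 and 47.4 CPM in transplanted libraries 1 to 4 (6.01-fold higher; log2 fold change 2.59 ± 0.18, adjusted p = 1.68e-05), and Gpr35, a receptor for kynurenate and other metabolites, was 2.52-fold higher. Of 16 genes of nucleotide and adenosine sensing 5 were higher and 0 lower (median 0.07). P2ry14, a receptor for UDP-sugars, stood at 0.202, 0.0516, 0 and 0 CPM in resident libraries 1 to 4 and 5.51, 9.33, 2.06 and 1.89 CPM in transplanted libraries 1 to 4. Transplanted libraries 1 and 2 had the higher levels, and the resident libraries were at or near 0. P2ry2, a receptor for ATP and UTP, was 6.95-fold higher (1.07 ± 0.345 against 7.51 ± 4.72 CPM). P2ry12, the receptor for ADP through which microglial processes find injury, was at 6006 ± 629.6 against 4398 ± 887 CPM and did not pass the test (adjusted p = 0.0598).

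Among 36 ion channel genes tested 8 were higher and 3 lower (median 0.08). P2rx4, an ATP-gated cation channel, stood at 101, 99.5, 103 and 106 CPM in resident libraries 1 to 4 and 169, 159, 162 and 166 CPM in transplanted libraries 1 to 4 (1.6-fold; log2 fold change 0.68 ± 0.05, adjusted p = 3.45e-05). The libraries of each group were close together and the groups did not overlap. Trpm2, a calcium channel opened by oxidative stress, and Trpv4, one opened by swelling and warmth, were 1.79-fold and 2.65-fold higher. Kcnn4, the calcium-activated potassium channel KCa3.1, stood at 3.79, 3.61, 4.05 and 3.89 CPM in resident libraries 1 to 4 and 37.6, 11.5, 26.9 and 34.9 CPM in transplanted libraries 1 to 4 (7.22-fold; log2 fold change 2.85 ± 0.32, adjusted p = 0.000288). Of 23 cyclic nucleotide enzymes 2 were higher and 3 lower (median -0.10): Pde1b, a calcium-dependent phosphodiesterase, was 2.88-fold and the adenylyl cyclase gene Adcy7 1.46-fold higher, while Adcy6 was 2.57-fold lower, as was Pde2a above. Adcy8 is not a member of that list. Adcy7 stood at 217 ± 16.5 CPM in resident and 316 ± 22.6 CPM in transplanted cells.

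Recognition receptors of innate immunity were called higher more often than lower. Of 36 Toll-like receptors and cytosolic sensors 8 were higher and 1 lower (median 0.14), with 4 higher without resident library 1, 3 or 4 and 5 without transplanted library 4, and Tlr2, which senses bacterial lipoproteins, stood at 182, 217, 224 and 209 CPM in resident libraries 1 to 4 and 368, 347, 414 and 516 CPM in transplanted libraries 1 to 4 (1.98-fold). Of 21 Fc receptors and lectins 6 were higher and 1 lower (median 0.28), with 3 lower without transplanted library 2. Clec7a, the beta-glucan receptor Dectin-1, stood at 11.6, 16.8, 12 and 11.9 CPM in resident libraries 1 to 4 and 51.7, 49, 39.6 and 85.4 CPM in transplanted libraries 1 to 4 (4.31-fold), Pilra, an inhibitory receptor, was 2.98-fold and the IgG receptor gene Fcgr4 2.44-fold higher. Siglece, an inhibitory sialic acid receptor, was 1.48-fold higher with 178 to 231 CPM in resident and 286 to 307 CPM in transplanted libraries. Of 16 complement genes 4 were higher and 0 lower (median 0.10), with 2 higher without resident library 2 or 3. C5ar1, the receptor for the fragment C5a, was 2.15-fold higher with transplanted library 3 at 903 CPM and the others at 429.6 to 462 CPM. C5ar1 was not called with resident libraries 1 and 4 both left out. Itgax, a subunit of a complement receptor, was 2.47-fold higher. C3, the central complement component, was 7.42-fold higher, and its call was lost without resident library 2 or 3. Among NF-kappa B targets 7 of 19 were higher and 0 lower (median 0.14), among them the adhesion molecule gene Icam1 (1.43-fold), and 4, 3 and 2 were called without resident library 2, 3 and 4 in turn.

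Lysosomal hydrolases break down engulfed material. Of 45 tested 11 were higher and 0 lower (median 0.15), and 38 had a positive log2 fold change. Ctsc and Ctsh, cysteine cathepsins, were 1.53-fold and 1.51-fold and Gusb, the beta-glucuronidase gene, 1.32-fold higher. Ctsc stood at 815, 805, 872 and 926 CPM in resident libraries 1 to 4 and 1256, 1388, 1336 and 1242 CPM in transplanted libraries 1 to 4. The number higher was 5 or 6 without any 1 resident library, 7 without transplanted library 2 or 4 and 16 without transplanted library 3. Without resident library 1, 1 hydrolase was lower. Lysosomal membrane proteins had 2 of 30 higher and 0 lower (median 0.02), and 0 or 1 higher without any 1 library other than transplanted 2, without which 1 was lower. With a replicate block 0 were higher. Subunits of the vacuolar proton pump had 1 higher and 1 lower of 16 (median -0.01), with 0 higher without resident library 2 or 4, 2 higher without transplanted library 3 and 0 lower without any 1 library other than transplanted 2. The letters TCACGTGA, the core to which regulators of lysosomal genes are known to bind, were present in 1 of 13 promoters of called members of the lysosomal lists (7.69%), in 9 of 59 members not called (15.3%) and in 2.2% of all genes tested.

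Lipid handling and lipid mediators changed at single genes. Of 26 genes of lipid uptake, efflux and droplets 8 were higher and 2 lower (median 0.20). Over the 20 members with at least 5 CPM in 4 libraries, 5 were higher and 2 lower (median -0.01). Nceh1, a hydrolase of cholesterol esters, and Soat1, the enzyme that makes them, were both higher, by 2.05-fold and 1.41-fold. Of 20 eicosanoid enzymes and receptors 5 were higher and 2 lower (median 0.06), with 0 lower without resident library 2, 3 or 4 or transplanted library 4 and 1 without transplanted library 1 or 3. Cyp4f18, a P450 enzyme that inactivates leukotriene B4, stood at 0.808, 1.5, 1.47 and 1.77 CPM in resident libraries 1 to 4 and 18.7, 7.99, 15.1 and 18.7 CPM in transplanted libraries 1 to 4 (10.9-fold; log2 fold change 3.44 ± 0.31, adjusted p = 7.69e-05). Alox5, the lipoxygenase that starts leukotriene synthesis, was 2.05-fold, Ptges, a prostaglandin E synthase, 1.98-fold and Ptger4, a receptor for prostaglandin E2, 6.18-fold higher. Among iron genes 5 of 19 were higher and 0 lower (median 0.12), including the ferritin heavy chain gene Fth1 (1.39-fold) and Slc11a1, which pumps metal ions out of phagosomes (1.46-fold), with 3 higher without resident library 4.

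Of 37 genes that build glycans, 11 were higher and 2 lower (median 0.18), with 7 higher without resident library 1. The number lower was 3 without transplanted library 2, and 1 without any 1 resident library or without transplanted library 1. Galnt7, a transferase of O-glycan synthesis, stood at 35.7, 31.2, 35.4 and 31.6 CPM in resident libraries 1 to 4 and 66.5, 59.3, 63.2 and 59.7 CPM in transplanted libraries 1 to 4 (1.86-fold; log2 fold change 0.89 ± 0.07, adjusted p = 3.67e-05). Gcnt1, which branches O-glycans, was 1.46-fold and St8sia6, a sialyltransferase, 3.25-fold higher. Of 209 solute carriers 32 were higher and 9 lower (median 0.09), and 18 to 21 were higher without any 1 resident library. Slc13a3, a transporter of dicarboxylates, was 2.12-fold higher, while the sugar transporter gene Slc5a10 and the zinc transporter gene Slc39a12 were 8.05-fold and 3.51-fold lower. Rab32, a GTPase of lysosome-related organelles, was 1.92-fold higher (log2 fold change 0.94 ± 0.07, adjusted p = 2.96e-05), among 3 higher and 3 lower of 45 Rab genes (median -0.09), of which 5 were lower without transplanted library 2.

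Genes of adhesion, guidance and shape split in direction. Of 25 integrins and adhesion receptors 9 were higher and 3 lower (median 0.09): Pecam1, an adhesion molecule shared by endothelium and leukocytes, stood at 40.9, 60.2, 52.7 and 55.6 CPM in resident libraries 1 to 4 and 11.6, 15.1, 9.11 and 10.8 CPM in transplanted libraries 1 to 4 (4.48-fold lower), and the cadherin gene Cdh23 was 1.66-fold lower. Pecam1 was the 1 lower gene among 4 endothelial markers tested, of which Flt1 and Cdh5 were higher (0.54 ± 0.298 against 1.97 ± 0.565 and 1.64 ± 0.486 against 3.45 ± 0.733 CPM). Of these markers 1 was higher without resident library 1 or transplanted library 3 and 0 without resident library 2 or transplanted library 4. Cldn5 and Slco1a4 were under 0.1 CPM in both group means and were not tested. Of 18 semaphorins, plexins and ephrins 4 were higher and 5 lower (median -0.08), with 1 or 2 higher without any 1 resident library. Sema6d, a membrane-bound semaphorin, stood at 39.6, 40.6, 40.5 and 44 CPM in resident libraries 1 to 4 and 3.69, 5.52, 1.34 and 0.647 CPM in transplanted libraries 1 to 4 (14.7-fold lower; log2 fold change -3.88 ± 0.43, adjusted p = 0.000253), and the ephrin gene Efnb2 was 10.8-fold lower. The Notch ligands Dll1 and Jag2 were 17.7-fold and 1.97-fold lower. Of 38 genes of the actin cytoskeleton and motility 7 were higher and 4 lower (median 0.02, and -0.02 with the length trend removed), and 1 to 7 were lower over the fits that left out 1 library. Myo5a, a motor that carries organelles along actin, stood at 8.94, 11.8, 8.1 and 13.3 CPM in resident libraries 1 to 4 and 70.5, 51, 67.7 and 105 CPM in transplanted libraries 1 to 4 (6.96-fold higher; log2 fold change 2.80 ± 0.23, adjusted p = 3.67e-05), Myo10, the motor of filopodia tips, was 3.72-fold and Ezr, which ties actin to the membrane, 3.73-fold higher. Among 26 matrix genes 6 were higher and 4 lower (median 0.31): the plasminogen activator gene Plau was 1.85-fold and the collagen cross-linking enzyme gene Lox 8.42-fold higher, and the gelatinase gene Mmp2 1.61-fold lower.

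Clock genes were called in both directions: of 20 tested, 4 were higher and 3 lower (median -0.15). The repressors Bhlhe41 and Bhlhe40 were 1.91-fold and 3.53-fold higher; Bhlhe41 stood at 257, 222, 220.0 and 241 CPM in resident libraries 1 to 4 and 431, 445, 529 and 391 CPM in transplanted libraries 1 to 4. Rora, a nuclear receptor that activates the clock gene Bmal1, was 1.6-fold lower beside Hlf. The time of day of collection is not on the labels used here. Ets1, a factor of many leukocytes, was 1.5-fold lower, among 3 higher and 3 lower of 46 transcription factors of macrophages (median 0.01, and -0.01 with RLE scaling). Of that list 0 were higher without resident library 3 and 1 without resident library 2 or 4, and 1 was lower without resident library 1 or 3. Of 34 genes of cell cycle and replication 5 were higher and 0 lower (median 0.72). Ccnd1, a cyclin of the entry into the cycle, was 1.54-fold and Aurkb, a mitotic kinase, 2.73-fold higher. Aurkb lost its call without resident library 1, 2 or 4. The number called was 1 or 2 without any 1 resident library and 7 to 9 without any 1 transplanted library, and the median was -0.02 over the 20 members with at least 5 CPM in 4 libraries.

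Respiratory chain and proteasome subunits were described beside the length of transcripts. Of 38 subunits of respiratory complex I 4 were lower and 0 higher (median -0.23), of 37 subunits of complexes III to V 8 lower and 0 higher (median -0.22) and of 39 proteasome subunits 9 lower and 0 higher (median -0.15). Ndufa4 and Cox6b1, subunits of respiratory complexes, were 1.36-fold and 1.29-fold lower, and the proteasome gene Psmd8 1.21-fold. The 10th of genes with the shortest effective length had a median log2 fold change of -0.14 with 31 higher and 110 lower calls, against -0.03 to 0.05 in the other 9 length classes. With the trend over length removed, the calls were 2 lower (complex I), 0 (complexes III to V) and 4 lower (proteasome), with medians of -0.07, -0.09 and -0.13. The numbers also moved with single libraries, over 1 to 11, 1 to 12 and 5 to 14 lower calls, each highest without transplanted library 2. Cytosolic ribosomal proteins had 1 of 80 lower (median -0.18, and -0.04 with the length trend removed). That count was 8 without resident library 3, 4 without transplanted library 3, 3 without transplanted library 2 and 0 without resident library 2 or 4 or transplanted library 1 or 4. Mitochondrial ribosomal proteins had 1 of 78 lower (median -0.07), and 2 without transplanted library 2. In autophagy, 4 of 30 genes were lower and 1 higher (median -0.09), and these 4 encode ubiquitin-like proteins that coat the growing autophagosome: Gabarap, Gabarapl1, Gabarapl2 and Map1lc3a, 1.25-fold, 1.24-fold, 1.31-fold and 1.38-fold lower. With the length trend removed 4 members of the list were lower, and 1 or 2 were without resident library 2 or 4 or transplanted library 1 or 4.

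**Figure D4:**
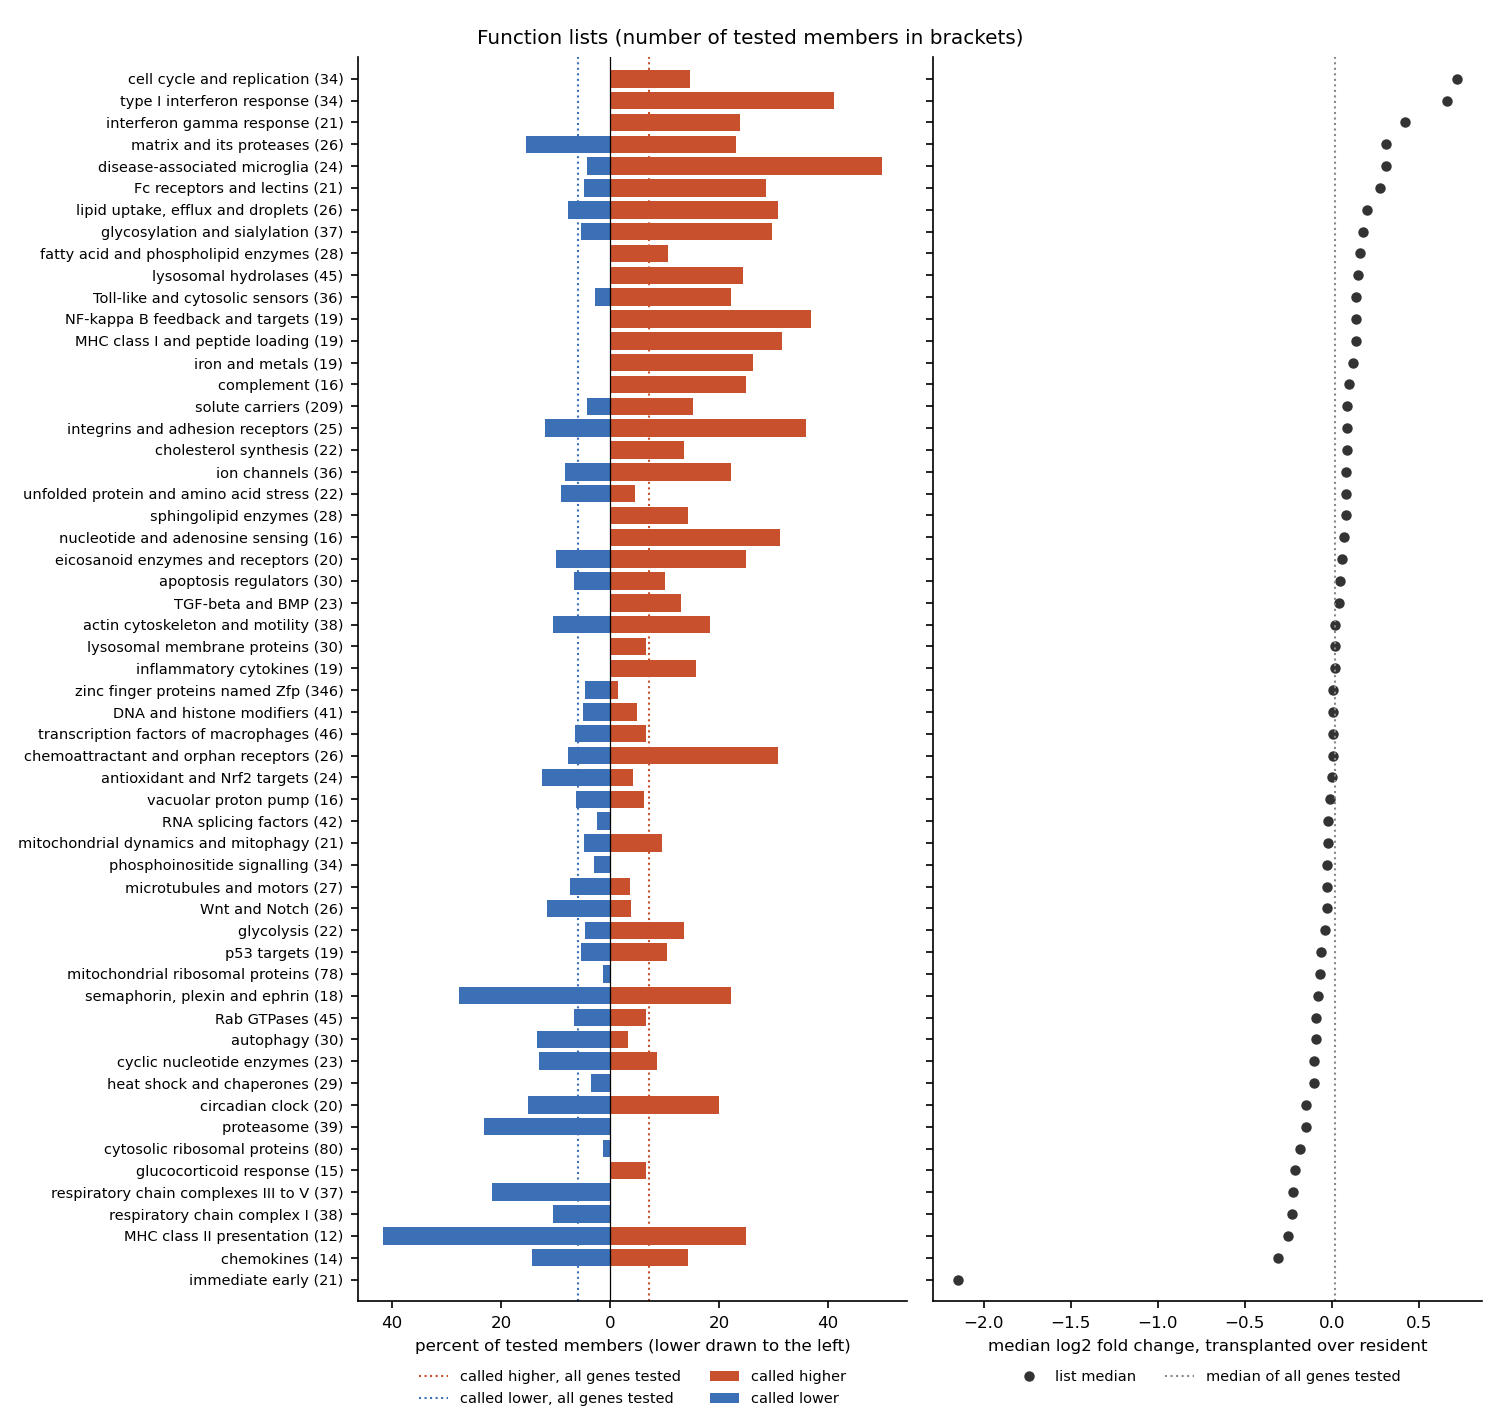
Left, the percent of tested members of each function list called higher (right of 0) and lower (left of 0) in transplanted cells, with dotted lines at 7.17% and 5.86% for all genes tested; right, each list's median log2 fold change with a dotted line at 0.02. Lists with at least 12 tested members are shown, except 1; type I interferon genes are at 0.66, and the immediate early list is at -2.15, or 0.15 without resident library 1.

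With resident libraries 1 and 4 both left out, the type I interferon list had 18 higher members and border markers 8 lower. Fewer were higher in most other lists: 1 for NF-kappa B targets, 1 for class II presentation, 3 for interferon gamma, 2 for Toll-like receptors and sensors, 2 for complement, 4 for lysosomal hydrolases, 2 for iron, 3 for glycans, 7 for solute carriers, 4 for ion channels, 3 for matrix, 4 for actin, 2 for semaphorins and ephrins and 1 for the cell cycle. Lower members were 0 for complex I, complexes III to V, the proteasome, autophagy and actin, and 3 for semaphorins and ephrins. That fit compares 4 transplanted with 2 resident libraries.

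Some called genes lay side by side. Of 5 genes of the GIMAP family and related GTPases, which are best known for lymphocyte survival, 4 neighbours on chromosome 6 were lower (median -2.46). Gimap1 stood at 33.7, 31.7, 38.7 and 34.9 CPM in resident libraries 1 to 4 and 6.77, 9.17, 4.02 and 5.39 CPM in transplanted libraries 1 to 4 (5.48-fold; log2 fold change -2.46 ± 0.20, adjusted p = 4.09e-05), Gimap9 was 7.24-fold, Gimap5 13.5-fold and Gimap6 2.61-fold lower. On the X chromosome 35 of 375 genes tested were lower (9.33%) and 13 higher (3.47%), against 5.86% and 7.17% of all genes tested. A stretch at chrX:134059176-137038302 held 27 tested genes, of which 9 were lower and 0 higher, all from the Armcx, Gprasp and Tceal families and Bhlhb9. Gprasp2, whose product sorts G protein-coupled receptors to lysosomes (Entrez 245607, chrX:135839034-135844730), stood at 44.8, 43.6, 38.4 and 39.2 CPM in resident libraries 1 to 4 and 2.68, 3.59, 2.42 and 2.21 CPM in transplanted libraries 1 to 4 (15.2-fold lower; log2 fold change -3.93 ± 0.14, adjusted p = 3.31e-07). Armcx2, an armadillo repeat protein, was 5.99-fold, Bhlhb9 2.28-fold and Gprasp1 1.58-fold lower. Bhlhb9 and Gprasp2 overlap in the annotation, so their reads may not be told apart. Btk, in the same stretch, was at 129.6 ± 7.07 against 129 ± 4.97 CPM. Gprasp1 was not called with resident libraries 1 and 4 both left out. Apart from Gprasp2, these X-linked genes were chosen after their values had been seen.

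A further block lay at the start of chromosome 14. That chromosome had 52 of 443 tested genes lower (11.7%), against 5.86% of all genes tested, and 27 of the 52 belong to this block. Between chr14:3049285 and 7994760, 27 of 38 tested genes were lower and 0 higher (median -1.40 on the log2 scale). The lower genes are mostly predicted ones with Gm names. Reads may be shared among them, which was not tested, so they are not to be read as independent genes. Summed over all 38 genes tested there, the level was 713 to 1005 CPM in resident and 251 to 489 CPM in transplanted libraries, without overlap. Gm3264 (Entrez 100041306, chr14:4854917-4876908) stood at 76.5, 93.2, 79.7 and 75.3 CPM in resident libraries 1 to 4 and 15.1, 29.2, 22.8 and 33.3 CPM in transplanted libraries 1 to 4 (3.24-fold lower; log2 fold change -1.70 ± 0.20, adjusted p = 0.000383), Gm3005 was 2.65-fold and Gm3636 2.79-fold lower. The block and its genes were chosen after their values had been seen.

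The promoters of the 27 lower genes were compared with each other. A run of 20 bases, AGACAGGAGAGGGGTGGGGT, picked from these same promoters as the one that the most of them hold, so that its share is a description alone, was found in 11 of the 27 (40.7%). It was found in 0 of 12297 promoters of the other genes tested. Promoters of genes that were not tested were not searched. It is shown in capitals with the bases around it for 3 of them, on the strand of the gene, at chr14:4855341-4855420 on the plus strand, chr14:6757180-6757259 on the minus strand and chr14:7105604-7105683 on the minus strand.
Gm3264: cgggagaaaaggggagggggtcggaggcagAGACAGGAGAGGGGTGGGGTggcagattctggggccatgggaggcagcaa
Gm3636: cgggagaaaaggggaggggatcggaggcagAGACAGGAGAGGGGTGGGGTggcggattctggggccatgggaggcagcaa
Gm3696: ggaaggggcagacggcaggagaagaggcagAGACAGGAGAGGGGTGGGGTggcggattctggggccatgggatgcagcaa
The bases before the run are nearly the same in Gm3264 and Gm3636 and differ for the most part in Gm3696. Over all 351 pairs of the 27 promoters, 3 were at least 80% identical position by position and the median was 26.7%. Positions were counted from each gene start, without shifting the sequences against each other. Relative to the gene start, the run began at -249 for Gm3411 and at -1 for Gm3739, so shared bases can be out of register. Gm2956 and Gm3264 held the same bases around the run and were 34.3% identical by this count. The median therefore cannot show whether these promoters are related.

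**Figure D5:**
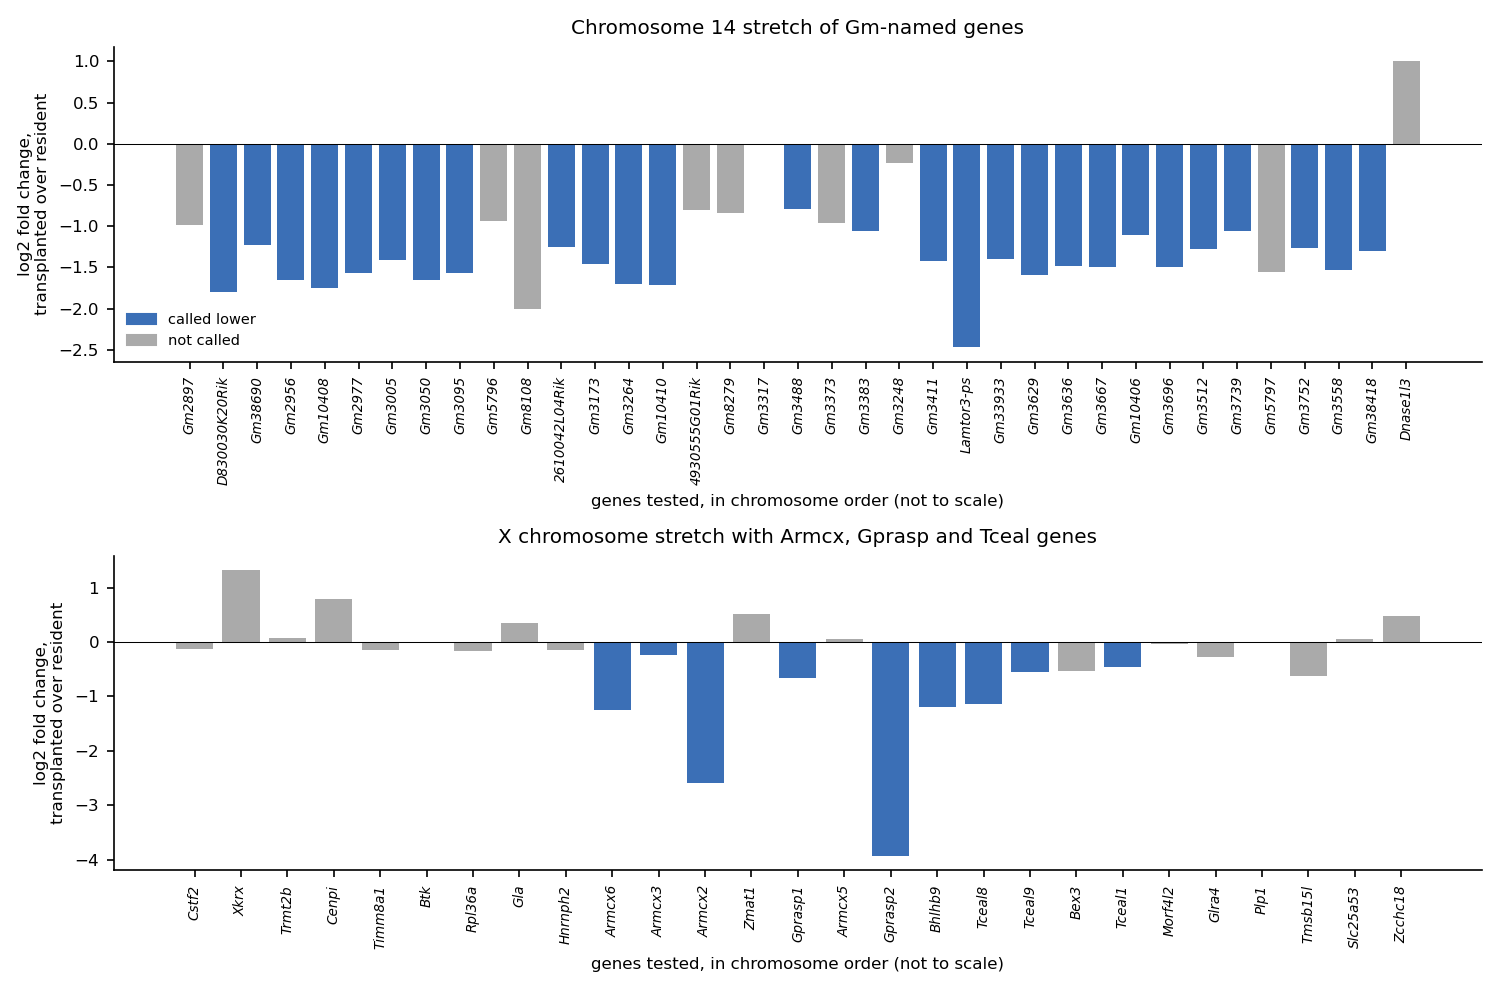
Log2 fold change, transplanted over resident, of each tested gene in chromosome order (not to scale) over the chromosome 14 block (38 genes) and the X chromosome stretch (27 genes); blue bars are called lower and grey bars are not called. In the upper panel, which leaves out 1 gene that was not called, 27 bars are called, and in the lower panel Gprasp2 reaches -3.93.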

How the data were processed

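RNA of sorted microglia was amplified from 1 ng with a Smart-Seq method, per the labels' protocols. Per the submitters' processing notes, HISAT and Bowtie2 were used with the mouse build GRCm38.p6; no version is given there. The deposited tables hold expected counts, TPM and FPKM per gene and library, made by the authors, per the file headers. FPKM values were not used here, and deposited TPM served for an alternative only.

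Expected counts were rounded and genes were filtered with filterByExpr, scaled by TMM and tested with edgeR 4.0.16 (quasi-likelihood) in R 4.3.3, with Benjamini-Hochberg adjustment. The fit held the 4 transplanted and 4 resident libraries, without covariates. Fold changes are given ± standard error, and levels ± SD. DESeq2 1.42.0 and limma 3.58.1 (log2 of TPM plus 1) were alternatives. The fit was tested on simulated data. The labels do not say that replicate numbers pair the samples. After each gene was centred within its group, same-numbered libraries had correlations of 0.00909, -0.0227, 0.018 and -0.0527. Other pairs across groups had -0.0774 to 0.118. Whether same-numbered libraries share a day or batch was not tested.

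Named were, in each direction, the 12 called genes with the largest fold change (at least 5 CPM in the higher group, no overlap), the 8 with the largest difference in CPM, the 6 with the smallest p, up to 4 called and 2 most abundant members of each of 74 lists, and markers of other cell types. A selection of these is described. The members and lists were chosen with earlier results of these data known. Symbols, positions and promoters come from RefSeq for GRCm38.p6, and 16845 of 16894 identifiers matched a symbol. The text gives the lists that bear on the comparison; a list of histone genes matched 0 genes in the table. A few genes and 1 list are not reported here.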

Additional observations from a re-analysis of the deposited data

Results flagged for a closer look

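Among 312 groups of 4 libraries (1 gene in 1 group each), 26 had a library whose gap to the nearest other was above Dixon's 95% critical share of the group's range. Chance flags about 1 in 20 such groups. Values are CPM, with the range of the other 3 libraries after each. Resident library 1 stood apart at 0.303 for Xdh (1.16 to 1.32), 64.4 for Ccnd1 (51.1 to 53) and 210.1 for Upk1b (246 to 252). In the same library the value was 1793 for Fos (1.87 to 7.48) and 2395 for Egr1 (6.21 to 19.5). Resident library 2 stood apart at 7.79 for Ccr1 (5.35 to 5.52), 16.8 for Clec7a (11.6 to 12) and 36 for Pde1b (29.4 to 30.2). In the same library the value was 27.5 for F13a1 (11.7 to 13.2). Resident library 3 stood apart at 2259.9 for Cmtm6 (1996 to 2019.8). Resident library 4 stood apart at 1041 for H2-D1 (737 to 745), 118 for Trpm2 (127 to 128) and 4.39 for C3 (0.454 to 0.619). In the same library the value was 15.7 for Ifi204 (6.26 to 6.71), 17.7 for Oas1a (6.51 to 8.15) and 4.39 for Rsad2 (1.01 to 1.55). Transplanted library 1 stood apart at 37.4 for Tnfsf8 (42.8 to 43.2). Transplanted library 2 stood apart at 0 for Bend5 (0.202 to 0.216), 17.7 for Bhlhb9 (10.6 to 11.5) and 159 for Gabarap (128 to 132). Transplanted library 3 stood apart at 15 for B3gnt8 (26 to 27.5), 903 for C5ar1 (429.6 to 462) and 30.7 for Egr1 (11 to 13). Transplanted library 4 stood apart at 9.49 for Myo10 (7.48 to 7.57), 877 for Lyz2 (595 to 639) and 21.3 for Ndufa4 (24.3 to 24.3).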

How the results depend on the processing

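Of 148 named genes that were called, 118 were called in the same direction under each of the 16 alternatives that tested them. Many of these genes were named for a large fold change or a small p in the main fit, so that share does not stand for all calls. Of all 1554 calls, 1005 were also made in the same direction without resident library 2, and 631 with resident libraries 1 and 4 both left out. Leaving out 1 library at a time gave 511 to 875 higher and 509 to 878 lower genes, against 855 and 699, and 215 to 321 and 269 to 339 genes changed at least 2-fold, against 288 and 303. The higher count was 519 without resident library 2 and 511 without resident library 3. With resident libraries 1 and 4 both left out, an alternative chosen after seeing the data, 324 genes were higher and 340 lower, 181 higher by at least 2-fold. A filter of 5 CPM in 4 libraries left 133 and 137 genes at least 2-fold higher and lower, with fewer genes tested, and limma on log2 of TPM plus 1 left 158 and 171; the cause was not tested. With RLE scaling 795 genes were higher and 759 lower. With a replicate block, although the labels do not say that numbers pair the libraries, 707 were higher and 592 lower, and Actb, Cmtm6, Cd81, Ctsd, H2-Ob, Sall1 and Trf lost their calls. Fos and Egr1, not called, had log2 fold changes from -6.38 to 1.45 and -5.68 to 0.50 when 1 library was left out, the positive values without resident library 1, and 1.13 and 0.20 without resident libraries 1 and 4. Low counts limit the precision of genes near 0.151 CPM.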
